A study of Mus musculus with 4 samples.

Results

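Mesenchymal marker genes were described in mouse somitic gastruloids in which the ZEB2 protein can be degraded. The 10 genes were Vim, Fn1, Pdgfra, Pdgfrb, Prrx1, Prrx2, Cxcl12, Postn, Tgfbi and Sparc, taken by symbol from the 24831 genes of the count tables, and all 10 were found. All libraries came from E14 triple reporter embryonic stem cells whose endogenous Zeb2 gene carries an HA epitope and the FKBP12F36V degron. Aggregates of 300 sorted cells were grown in NDiff227, received 3 μM CHIR99021 (a WNT pathway activator) from 48 h, and were placed in 10% Matrigel at 96 h. The dTAG-13 group received 100 nM dTAG-13, a small molecule that directs degron-tagged protein to degradation, at 72 h and 96 h. The other group is titled untreated, and DMSO is the control named in the growth protocol. Each group had 2 libraries, numbered 1 and 2 in both. No label says what a number stands for, or that the libraries are from different cultures. The p-values therefore measure spread among these 4 libraries alone, and that spread may be technical.

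Mesenchymal cells are loosely attached, migratory cells that lie in an extracellular matrix. In the embryo they arise from mesoderm and neural crest, in part through epithelial to mesenchymal transition, in which ZEB proteins repress genes of epithelial junctions. The genes described here cover the parts of such a cell: an intermediate filament, matrix proteins, growth factor receptors, transcription factors and a chemokine. None of them marks 1 cell type alone, and vimentin and fibronectin are also made by progenitors of several germ layers.

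For these genes the libraries separated by replicate number, and the treatment groups overlapped. All 9 members with enough counts for the test were lower in both number 2 libraries than in both number 1 libraries, as were 24.9% of the 13602 genes tested. Postn, which had too few reads, stood the same way. Because each treatment group holds both numbers, this order by itself makes the groups overlap. For none of the 9, therefore, were the dTAG-13 libraries both lower than the untreated ones (11.9% of genes tested) or both higher (14.4%). That overlap is no separate result about dTAG-13. Over all genes tested, 7 of the 9 were called lower in number 2 by edgeR, against 2.79% of all genes. With the group as the only term, edgeR called 0 of the 9 with dTAG-13, against 0% of all genes. In that fit 0 had an unadjusted p under 0.05, where 479 genes of the 13602 did. An edgeR fit that also held the replicate number called 1 member lower, Pdgfra (adjusted p = 0.0177), as it did 1.77% of all genes. No label pairs the libraries, so that fit is an alternative, and its p-values rest mainly on spread shared across genes. DESeq2, with the group as the only term, called 0 members with dTAG-13, against 0.333% of the genes it adjusted. In whole aggregates, fewer cells of a type and less RNA per cell cannot be told apart.

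The libraries held 11491330 to 12716172 reads counted in genes. Tcf15, Meox1 and Pax3, which mark somites, were detected in every library, as were Tbx6 of the presomitic mesoderm and T and Cdx2 of the tail bud. Zeb2 mRNA was at 98.2 and 164 CPM (counts scaled to a common library size with TMM factors) in untreated libraries 1 and 2 and at 102 and 108 CPM with dTAG-13. The tag acts on the protein, which was not measured, so this level does not check the labels. The share of reads outside genes was highest in untreated replicate 1, at 35.7%, and 24.1% to 29.2% in the other libraries. Mitochondrial genes took 1.30% and 1.73% of reads in the number 1 libraries and 1.92% and 2.09% in the number 2 libraries, so this share separated by number as the members did. Its part in their levels was not tested.

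Per length of exon, the 10 genes spanned a wide range. Fn1 came first with 113 to 214 reads per kilobase of exon, on the CPM scale, Vim followed with 46.4 to 95.8, and then Sparc with 23.8 to 44.9. The ranges of these 3 genes over the libraries did not overlap, although Sparc in dTAG-13 library 1 (44.9) came close to Vim in dTAG-13 library 2 (46.4). Prrx2, Tgfbi, Pdgfra, Cxcl12 and Pdgfrb lay next, with means over the 4 libraries of 11.9, 6.79, 6.67, 6.18 and 5.02, and their ranges overlapped throughout. Prrx1 followed with a mean of 1.52 and a range that overlapped that of Tgfbi, and Postn was last with 0.190. These lengths are the joined exons of GENCODE M21, which may not be the annotation used for counting, and a gene with a long rarely used exon is understated.

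**Figure D1:**
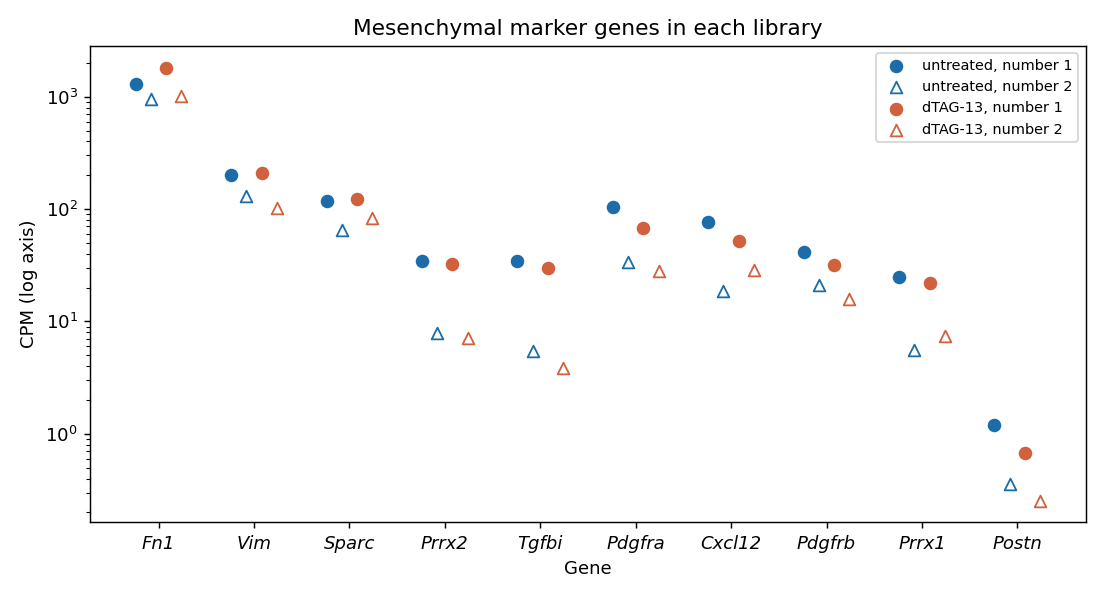
Level of each mesenchymal marker gene in each of the 4 libraries, as CPM on a log axis, with genes in order of their level per exon length. Circles are libraries numbered 1 and open triangles libraries numbered 2, and for every gene both triangles lie below both circles, from Fn1 at 955 to 1816 CPM down to Postn at 0.255 to 1.20 CPM.

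Vim encodes vimentin, the intermediate filament protein of mesenchymal cells (chromosome 2, 13574311 to 13582826 in GRCm38.p6). Untreated libraries 1 and 2 had 201 and 132 CPM, and dTAG-13 libraries 1 and 2 had 210 and 102 CPM. The number 1 libraries were close to each other and both number 2 libraries were lower, so the treatment groups overlapped. The mean was 167 ± 49.2 CPM untreated and 156 ± 76.6 CPM with dTAG-13 (SD, n = 2 each). Number 2 was 1.76-fold below number 1, a log2 difference of -0.82 ± 0.14 (SE, edgeR adjusted p = 0.0138). The call was lost when untreated library 1 (adjusted p = 0.126) or dTAG-13 library 1 was left out. With dTAG-13 the log2 difference was -0.10 ± 0.43, with a 95% interval of -1.29 to 1.10.

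Fn1 encodes fibronectin, the fibrillar matrix protein to which migrating mesoderm attaches (chromosome 1, 71585473 to 71653280). Its levels in libraries 1 and 2 were 1308 and 955 CPM without dTAG-13, against 1816 and 1023 CPM with it. Both number 1 libraries exceeded both number 2 libraries, so the treatment groups overlapped. Fn1 made up 67.2% to 78.7% of the summed CPM of the 10 genes in a library. Group means were 1131 ± 249.7 and 1419 ± 561 CPM. The dTAG-13 library was the higher within each number, by 0.47 in number 1 and 0.10 in number 2 on the log2 CPM scale, and the edgeR log2 difference was 0.33 ± 0.32 (adjusted p = 1.00, interval -0.48 to 1.13). Between numbers the log2 difference was -0.66 ± 0.18 and did not pass (adjusted p = 0.0801).

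Sparc encodes a collagen-binding glycoprotein of the matrix, also known as osteonectin (chromosome 11, 55394159 to 55420080). Sparc stood at 119 and 64.7 CPM in the untreated pair, against 122 and 83.8 CPM in the dTAG-13 pair. As for Vim, the number 1 libraries were nearly level with each other. Number 2 was lower by a log2 value of -0.70 ± 0.14 (adjusted p = 0.0270), a call lost in 3 of the 4 fits that leave out 1 library, where the adjusted p reached 0.168. The dTAG-13 difference was 0.16 ± 0.36.

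Tgfbi and Postn encode related secreted proteins with fasciclin domains that bind integrins and collagens. Tgfbi (chromosome 13, 56609586 to 56639359) had the widest spread of the 10 genes, with 34.5 and 5.42 CPM in the untreated pair, against 30.0 and 3.82 CPM in the dTAG-13 pair. The 2 number 1 libraries held 458 and 352 reads and the 2 number 2 libraries 61 and 45, and the 95% exact Poisson intervals, which cover counting error only, were 31.4 to 37.8 and 26.9 to 33.3 CPM against 4.15 to 6.97 and 2.78 to 5.11 CPM. Number 2 was 6.98-fold below number 1, a log2 difference of -2.80 ± 0.22 (adjusted p = 3.58e-04), and Tgfbi stood at position 60 from the lowest among the differences of the 13602 genes. With dTAG-13 the group means were 19.9 ± 20.5 and 16.9 ± 18.5 CPM, a log2 difference of -0.24 ± 1.40.

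Postn (chromosome 3, 54359267 to 54391041) encodes periostin and was barely detected. It had 16 and 4 reads untreated and 8 and 3 reads with dTAG-13, or 1.20, 0.356, 0.682 and 0.255 CPM. The counting interval of untreated replicate 2 (0.0969 to 0.910 CPM) overlapped that of untreated replicate 1 (0.688 to 1.96 CPM). Postn was the member left out of the edgeR test by its low counts, and a difference was not detectable at this depth.

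The PDGF receptors Pdgfra and Pdgfrb are tyrosine kinases of mesenchymal cells, and PDGFRA is known in paraxial mesoderm. Pdgfra (chromosome 5, 75151322 to 75198206) had 104 and 34.1 CPM in untreated libraries 1 and 2, against 67.2 and 28.1 CPM in the dTAG-13 libraries. Pdgfrb (chromosome 18, 61045127 to 61085067) had 41.8 and 20.9 CPM, against 31.5 and 15.9 CPM. For both receptors, untreated replicate 1 was the highest library and dTAG-13 replicate 2 the lowest. Within each number the dTAG-13 library was the lower, by -0.63 and -0.28 for Pdgfra and by -0.40 and -0.39 for Pdgfrb on the log2 CPM scale.

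With the group as the only term, edgeR called neither receptor with dTAG-13, and the log2 differences were -0.54 ± 0.77 for Pdgfra (interval -2.83 to 1.75) and -0.41 ± 0.49 for Pdgfrb (interval -1.73 to 0.92), both with an adjusted p of 1.00. Between numbers, Pdgfra was 2.76-fold lower in number 2 (log2 difference -1.46 ± 0.23, adjusted p = 0.0299) and Pdgfrb 2.0-fold lower (-1.0 ± 0.20, adjusted p = 0.0274). Pdgfra was not called without dTAG-13 replicate 2 (0.143), and Pdgfrb was called in 1 of the 4 fits that leave out a library. The ratio of Pdgfra to Pdgfrb reads was 2.50 and 2.13 in the number 1 libraries and 1.63 and 1.77 in the number 2 libraries, so it too was lower in number 2.

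Cxcl12 encodes a chemokine secreted by mesenchyme that guides cells bearing the receptor CXCR4 (chromosome 6, 117168535 to 117181368). Levels were 77.4 and 18.8 CPM in the untreated pair, against 52.2 and 28.6 CPM in the dTAG-13 pair. Within number 1 the dTAG-13 library was lower, by -0.57 on the log2 CPM scale, and within number 2 it was higher, by 0.60. That opposite movement is 1 library against 1 in each number and has no test. Number 2 minus number 1 was -2.03 in the untreated pair and -0.86 in the dTAG-13 pair on the same scale, and the edgeR value of -1.45 ± 0.28 did not pass (adjusted p = 0.0678).

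Prrx1 and Prrx2 encode paired-related homeobox transcription factors of limb, craniofacial and lateral mesenchyme. Prrx2 (chromosome 2, 30845064 to 30881251) had 34.5 and 7.82 CPM in the untreated pair, against 32.6 and 7.13 CPM in the dTAG-13 pair. Its 2 groups were nearly the same within each number, and number 2 was 4.49-fold below number 1 (log2 difference -2.17 ± 0.18, adjusted p = 3.76e-04). The dTAG-13 difference was -0.10 ± 1.12. Prrx1 (chromosome 1, 163245119 to 163315145) had 24.9 and 5.60 CPM, against 22.0 and 7.38 CPM, and again both number 2 libraries were the lower.

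Prrx1 was 3.61-fold lower in number 2 (log2 difference -1.85 ± 0.22, adjusted p = 0.00270), and its dTAG-13 difference was -0.06 ± 0.96, with a lower value in number 1 and a higher one in number 2. The ratio of Prrx1 to Prrx2 reads was 0.721, 0.716 and 0.674 in untreated 1, untreated 2 and dTAG-13 1, and 1.04 in dTAG-13 2. An antisense transcript, Gm20471, lies within Prrx1, and without a stated strand setting its reads cannot be told from those of Prrx1. Prrx1, Prrx2 and Tgfbi were the 3 members called lower in number 2 in all 4 fits that leave out 1 library.

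Promoter sequences are shown for the pair of members with the largest difference between numbers, Tgfbi and Prrx2, and for Vim, the gene most often used to name this state. Each run is the 250 bases before a transcript start that RefSeq annotates on GRCm38.p6, 5′ to 3′ on the gene's strand, all 3 on the plus strand, with motif matches in capitals. The Prrx2 run precedes a start that lies inside the span given for the gene above. Tgfbi lies at chr13:56609336-56609585, Prrx2 at chr2:30845117-30845366 and Vim at chr2:13574061-13574310.
Tgfbi: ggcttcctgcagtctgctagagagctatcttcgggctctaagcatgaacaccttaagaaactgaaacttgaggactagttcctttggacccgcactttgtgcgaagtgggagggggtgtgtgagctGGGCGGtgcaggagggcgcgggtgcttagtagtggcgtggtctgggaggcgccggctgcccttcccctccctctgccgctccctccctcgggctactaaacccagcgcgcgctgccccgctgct
Prrx2: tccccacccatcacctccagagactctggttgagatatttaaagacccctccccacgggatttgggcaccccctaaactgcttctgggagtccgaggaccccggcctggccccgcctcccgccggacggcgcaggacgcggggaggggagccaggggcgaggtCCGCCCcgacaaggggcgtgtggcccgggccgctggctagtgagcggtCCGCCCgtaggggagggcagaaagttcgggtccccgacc
Vim: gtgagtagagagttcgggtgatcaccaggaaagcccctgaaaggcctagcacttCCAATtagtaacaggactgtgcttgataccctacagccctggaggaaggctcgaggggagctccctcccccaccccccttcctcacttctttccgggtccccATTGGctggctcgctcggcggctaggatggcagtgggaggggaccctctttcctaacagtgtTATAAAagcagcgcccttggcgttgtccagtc
The capitals mark the GC box GGGCGG or its complement CCGCCC in Tgfbi and Prrx2, and in Vim the CCAAT box, once as CCAAT and once as ATTGG, and the TATA box TATAAA, which begins 32 bases before the start.

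The motifs were searched on both strands in 9 promoter entries of 8 members and in all 32851 entries of the table. CAGGTG, the E-box that ZEB proteins are known to bind, was in 0 of the 9 and in 17.2% of all promoters, and its variant CAGGTA was in 0 of the 9 and in 10.0% of all. GGGCGG was in 3 of 9 (Prrx2, Cxcl12 and Tgfbi) against 32.7% of all, and TATAAA in 2 of 9 (Vim and 1 of the 2 Postn entries) against 12.4%. CCAAT was in 1 of 9, Vim, against 33.8%. GGGCGG matches overlapped each other in Cxcl12. A match describes letters in this window only, and distal sequence was not examined. Fn1 and Pdgfrb have no entry in the promoter table.

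Across the members, the median log2 difference of number 2 against number 1 was -1.45, where the median over all 13602 genes tested was 0.00. The 9 members tested ran from -2.80 for Tgfbi to -0.66 for Fn1, and 5 of them were more than 2-fold lower, as were 4.08% of all genes. The 5 were Tgfbi, Prrx2, Prrx1, Pdgfra and Cxcl12, while the smallest values belonged to Fn1, Sparc and Vim, the 3 genes of highest level per exon length. With the group as a second term, edgeR called all 9 lower, Fn1 (adjusted p = 0.0407) and Cxcl12 (3.15e-18) included, against 7.51% of all genes. With 4 libraries and both terms fitted, each gene keeps little spread of its own, so these p-values rest mainly on spread shared across genes. Cxcl12 differed between numbers by -2.03 untreated and -0.86 with dTAG-13 (log2 CPM), beside a fitted standard error of 0.15. DESeq2 also called all 9 lower, against 2.93% of the genes it adjusted.

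The median dTAG-13 difference over the members was -0.10, beside 0.00 over all genes tested. With the replicate number as a second term, edgeR called Pdgfra alone among the 9 (adjusted p = 0.0177), in a fit with the same limit on its p-values. Within numbers, 5 of the 10 were lower with dTAG-13 in both (Pdgfra, Pdgfrb, Prrx2, Postn and Tgfbi), 2 were higher in both (Fn1 and Sparc) and 3 moved in opposite ways (Vim, Prrx1 and Cxcl12). The groups overlapped for all 10, which the order by number alone entails. No share over all genes was computed for these counts of direction. Some of the differences were small, such as 0.03 for Sparc in number 1 and -0.08 and -0.13 for Prrx2 on the log2 CPM scale. Standard errors of the dTAG-13 difference were wide, from 0.32 for Fn1 to 1.40 for Tgfbi, so that changes of 2-fold lay inside the 95% interval for each of the 9 in at least 1 direction.

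**Figure D2:**
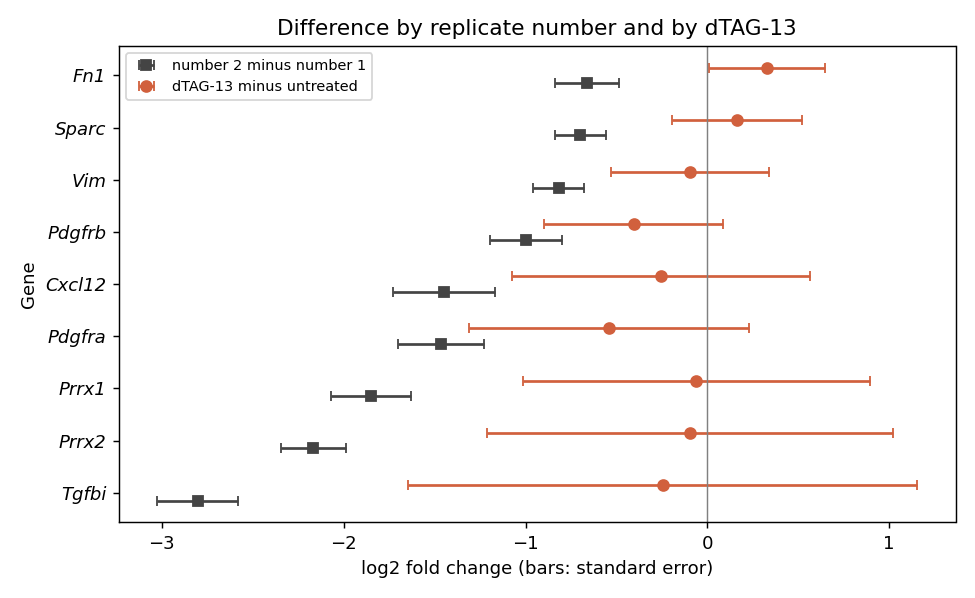
Log2 fold change of the 9 tested members between replicate numbers (squares) and between treatments (circles), with bars of 1 standard error from edgeR. All squares lie below 0, from -0.66 to -2.80, while all circles lie between -0.54 and 0.33.

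For each gene, the variation of log2 CPM over the 4 libraries can be divided exactly into a part that follows the number, a part that follows dTAG-13, and a part from an unequal dTAG-13 difference in the 2 numbers. The number took 77.8% of it for Fn1 and up to 99.7% for Prrx2, and was the largest of the 3 parts for all 9 members tested and for Postn, as it was for 48% of all genes tested. Over all genes the median share of the number was 41.9%. Fn1, Postn and Pdgfrb had the largest dTAG-13 shares, 15.5%, 14.5% and 14.0%. Cxcl12 had the largest share from unequal differences, also 14.0%, and a dTAG-13 share of 0.00916%.

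**Figure D3:**
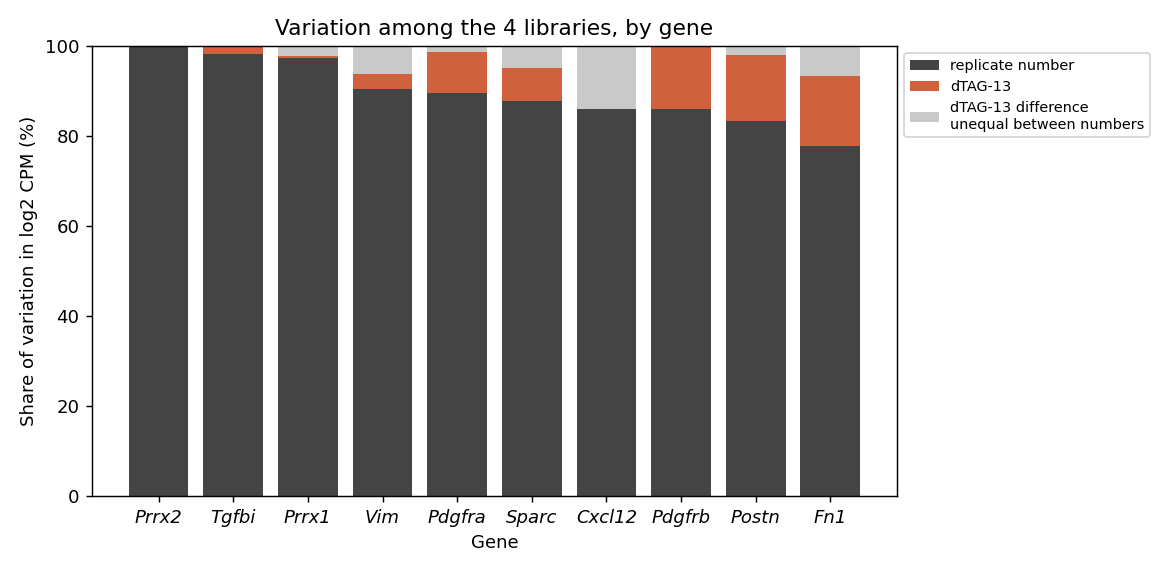
Share of the variation of log2 CPM among the 4 libraries that followed the replicate number, dTAG-13, or an unequal dTAG-13 difference between numbers, for each member, in percent. The dark part, the number, runs from 99.7% in Prrx2 to 77.8% in Fn1.

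The partners of these proteins were examined in 7 lists of 47 genes, 44 of which had enough counts to be tested. Between numbers, edgeR called 13 lower and 1 higher, where 2.79% and 0.926% of all genes tested were. With dTAG-13 and the group as the only term, edgeR called 0 partners, as it called 0% of all genes. In that fit 6 of the 44 had an unadjusted p under 0.05, against 3.52% of all genes tested. DESeq2 called 2 partners with dTAG-13, the keratin genes Krt8 and Krt18, both higher, where it called 0.333% of the genes it adjusted. The CXCL12 receptor Cxcr4 was called lower in number 2 (-1.10 ± 0.20, adjusted p = 0.0238), with 39.0 and 24.4 CPM in the untreated pair, against 51.8 and 18 CPM in the dTAG-13 pair. The scavenger receptor Ackr3 had 8.61 to 10.9 CPM in the 4 libraries and was not called. Among the PDGF ligands, 0 of 3 tested were called, and Pdgfa, a ligand of PDGFRA, had 30.9 and 52.5 CPM in the untreated pair, against 42.9 and 67.0 CPM in the dTAG-13 pair (adjusted p between numbers = 0.104).

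Of the 7 integrin subunits that bind fibronectin, periostin or TGFBI, 2 were called lower in number 2, against 2.79% of all genes tested. They were Itga5, the alpha chain of the main fibronectin receptor (-0.83 ± 0.13, adjusted p = 0.00930), and Itga8 (-1.96 ± 0.32, adjusted p = 0.0313). The TGF-beta ligands Tgfb2 (-2.14 ± 0.24, adjusted p = 0.0105) and Tgfb1 (-1.21 ± 0.25, adjusted p = 0.0285) were lower, and Tgfb3 was not called. Fbn2, which encodes the microfibril protein fibrillin-2, had 384 and 363 CPM in number 1 and 120 and 94.9 CPM in number 2 (-1.80 ± 0.14, adjusted p = 3.58e-04). Smoc2, a matrix protein of the SPARC family, was the 1 partner called higher in number 2 (1.26 ± 0.25, adjusted p = 0.0268).

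Among the 16 tested genes of the list of other mesenchymal and EMT-associated genes, 7 were called lower in number 2. The share over all genes tested was 2.79%. They included the collagen chain Col1a1 (-2.66 ± 0.31), the mesenchymal cadherin Cdh11 (-1.79 ± 0.22), the EMT transcription factors Snai2 (-2.24 ± 0.33) and Twist1 (-1.37 ± 0.21), and the mesodermal transcription factor Tcf21, with adjusted p values from 0.00396 to 0.0114. Tcf21 had 2.03 and 2.05 CPM in number 1 and 0.0889 and 0.170 CPM in number 2, where it rests on 1 and 2 reads. The other 2 were Mmp14 and Col3a1, with adjusted p of 0.0477 and 0.0482. Cdh2, which encodes N-cadherin, was not called between numbers (-0.31) or with dTAG-13 (-0.34), and S100a4 had 0 reads in every library.

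With dTAG-13 the smallest unadjusted p among the partners was that of the intermediate filament gene Krt18, a keratin of simple epithelia, with 81.9 and 72.0 CPM in the untreated pair, against 129 and 197 CPM in the dTAG-13 pair (log2 difference 1.08 ± 0.22, unadjusted p = 0.00275). With the group as the only term, it was not called over all genes by edgeR and was by DESeq2 (adjusted p = 0.00722). The ratio of Vim to Krt8 reads, where Krt8 is the keratin that pairs with Krt18, was 2.81 and 2.07 in untreated libraries 1 and 2. It was 1.58 and 0.451 with dTAG-13, both lower than in either untreated library. Krt8 itself had 71.6 and 63.7 CPM in the untreated pair, against 133 and 226 CPM in the dTAG-13 pair, while the groups overlapped for Vim. Nes, an intermediate filament gene of neural progenitors, had 38.5 and 68.3 CPM in the untreated pair, against 34.5 and 27.8 CPM (edgeR unadjusted p = 0.0481). The other partners with an edgeR unadjusted p under 0.05 were Krt8 (0.00284) and Itgb5 (0.0115), both higher. Lox (0.0143, at 3 to 19 reads) and Sparcl1 (0.0339) were lower.

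Markers of several other cell types were lower in number 2 too. Of all genes tested, edgeR called 2.79% lower and 0.926% higher in number 2. The 8 endothelial markers summed to 174 and 143 CPM in the number 1 libraries, untreated and then dTAG-13, and to 42.8 and 48.7 CPM in number 2. Of the 8, 7 were called lower, Kdr and Cdh5 among them. The exception was Pecam1, for which the numbers overlapped (log2 difference 0.05 ± 0.21, edgeR adjusted p = 0.939). The 9 lateral plate and cardiac markers summed to 68.6 and 104 CPM against 9.16 and 21.3 CPM, with 4 of 7 tested called lower, Tbx20, Isl1, Hand2 and Gata4. Intermediate mesoderm markers summed to 127 and 271 CPM against 32.7 and 55.0 CPM, with 1 of 4 called, Wt1. Fibroblast markers summed to 71.3 and 45.0 CPM against 20.9 and 11.7 CPM. Of these, 2 of 5 were called, Col1a1 and Col3a1, which are also among the partners. Col1a2, also a partner, was lower but not called (log2 difference -2.05 ± 0.53, edgeR adjusted p = 0.178). Thy1, on both lists, stood the other way, with 2.33 and 1.53 CPM in number 1 and 5.07 and 3.73 CPM in number 2 (log2 difference 1.17 ± 0.39, edgeR adjusted p = 0.159, or 0.0125 with the group as a term). Of the fibroblast markers, Lum was at 0 in both number 2 libraries and at most 0.226 CPM in number 1, and Dcn was at most 1.35 CPM.

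Sclerotome markers had 1 of 3 tested called lower, Pax9, while Sox9 (-0.45) and Foxc2 (-0.65) were not called. Nkx3-2 had 2 reads in each number 1 library and 0 in both number 2 libraries, too few to compare. Neural crest markers had 1 of 3 called lower, Ets1, which endothelium also expresses, while Sox10 was at most 0.452 CPM and Foxd3 was at 0 in every library. Smooth muscle markers summed to at most 7.84 CPM with 0 of 1 called, and 3 of the 4 blood markers had 0 reads in every library. Primitive and parietal endoderm markers, most of them basement membrane genes that other cells share, summed to 883 and 1077 CPM against 710.0 and 725 CPM, with 5 of 7 called lower.

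Tail bud markers stood the other way, at 220.4 and 207 CPM in number 1 and 491 and 348 CPM in number 2, with 1 of 5 called higher, Cdx2. Neural tube markers were at 184 and 134 CPM in number 1 and 344 and 186 CPM in number 2, with 0 of 6 called. Of these 6, 1 was higher in both number 2 libraries (23.1% of genes tested) and 5 were lower in both dTAG-13 libraries (11.9%). Somite markers were at 240.5 and 119.9 CPM in number 1 and at 129 and 67.9 CPM in number 2, and epithelial and gut endoderm markers at 506 and 893 CPM against 678 and 1615 CPM, with 0 of 9 and 0 of 7 called. With dTAG-13 and the group as the only term, edgeR called 0 genes of these lists. DESeq2 called 6, where it called 0.333% of the genes it adjusted. Of the 6, Krt8, Krt18, Cldn6 and Cldn7 were higher and Sox1 and Irx3 lower. By edgeR, 6 of 7 epithelial markers were higher and 5 of 6 neural tube and 5 of 9 somite markers lower at an unadjusted p under 0.05. Of all genes tested, 3.52% had such a p in either direction and 1.23% were lower with it. The part of these cell types in the levels of the members was not tested.

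**Figure D4:**
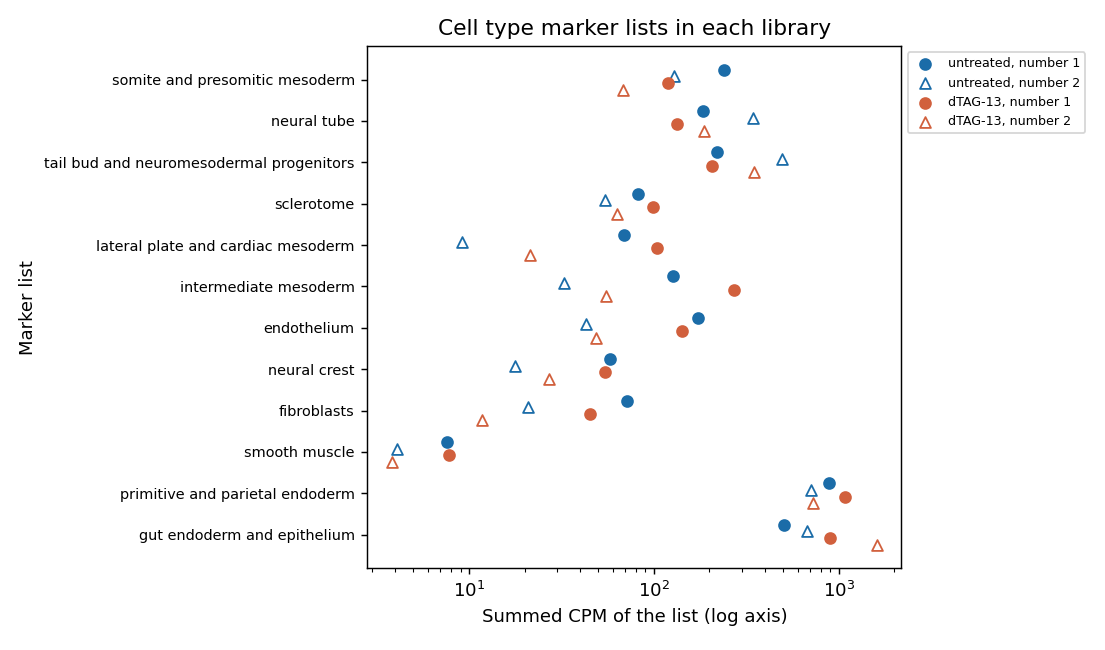
Summed CPM of each cell type marker list in each library, on a log axis, with circles for number 1 and open triangles for number 2. Both triangles lie left of both circles for 8 lists, from sclerotome down to primitive and parietal endoderm. They lie right of both for the tail bud list and, narrowly (186 against 184 CPM), for the neural tube list. The somite and epithelial lists overlap.

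Genes whose levels over the 4 libraries ran most closely with each member were found among 12333 other genes whose mean log2 CPM was 1 or more, by the root mean square difference of log2 CPM centred on each gene's mean. With 4 libraries and this many candidates a close match is easily found, and the genes are a description only. Nearest to Vim was Tgfbr2, a TGF-beta receptor, at a distance of 0.0275. Tgfbi was nearest to Myl7, a myosin light chain of heart muscle (0.0536), then to the transcription factor gene Mef2c and to Col1a1 (0.128 and 0.169). Prrx2 was nearest to Tshz2 (0.0593), Pdgfra to Sox6 (0.0404), Pdgfrb to Pfkp (0.0456), Cxcl12 to Gipr (0.0702) and Prrx1 to the histone gene H4f16 (0.102). Fn1 and Sparc, which varied by less than 2-fold, and Postn, at a low level, were not matched.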

How the data were processed

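RNA from 4 libraries, 2 untreated and 2 with dTAG-13, was sequenced after ribosomal RNA depletion. Whole-number read counts per gene symbol were deposited for each library, without normalization. The submitters' processing notes list HTSeq 0.12.4, STAR 2.7.6a, DESeq2 1.34.0 and fastp 0.20.1, with mm10 and GRCm38.p6 as builds, and give no roles. For the counting annotation and strand setting the sources used here have no entry. Each table's 5 summary lines entered neither library sizes nor tests. The share outside genes (24.1% to 35.7%) is 1 of these lines, over reads in genes, outside genes or ambiguous.

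Libraries were grouped by title. Both comparisons used edgeR 4.0.16 in R 4.3.3: filterByExpr by group (minimum count 10, total 15; 13602 genes kept), TMM, glmQLFit with robust estimation and two-sided glmQLFTest, Benjamini-Hochberg adjustment over all genes kept, threshold 0.05, with either the group or the replicate number as the only term. Standard errors were derived from the F statistic, as |log2 fold change| / √F, and 95% intervals use the test's degrees of freedom. Log2 CPM values add a prior count of 2. DESeq2 1.42.0 was an alternative. The procedure was run on simulated data with known changes. Those data held changes in the compared term only and a common dispersion, so they do not check a fit in which the other term also varies. Replicates of a group differed beyond counting noise (chi-square per degree of freedom 36.3 and 30.9), so none was a repeat deposit.

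The members and lists were chosen with earlier results of these data known, so no list was tested as a whole. All 10 members were named; partners were named where called in either comparison, up to 10 by smallest p, with further ones named after their values were seen. Coordinates and promoters are from RefSeq on GRCm38.p6, exon lengths from GENCODE M21 on the same build.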

Additional observations from a re-analysis of the deposited data

How the results depend on the processing

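The sign and calls of the number comparison were stable to scaling: 7 members were called lower with RLE or upper quartile factors, with at least 50 counts, or with library sizes that leave out the members and mitochondrial genes. No filter gave 8, Fn1 being added (adjusted p = 0.0166), and raised the genes called overall from 506 to 850, as did the group as a second term (1729); these causes were not tested. Leaving out 1 library gave 127 to 834 genes and 4 to 7 members, the fewest members without untreated or dTAG-13 replicate 1, and a member median of -1.70 to -1.11; no member changed sign.

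With dTAG-13, DESeq2 called 41 genes, 27 higher and 14 lower, where edgeR called 0. The member median was -0.13 with upper quartile factors against -0.10, and it ran from -0.98 without dTAG-13 replicate 1 to 0.66 without untreated replicate 1; each of the 4 fits called 0 genes. Single members ran from -0.71 to 0.31 (Vim), -0.15 to 0.66 (Fn1), -1.30 to 0.47 (Pdgfra), -0.98 to 0.17 (Pdgfrb), -1.05 to 1.38 (Prrx1), -1.58 to 1.33 (Prrx2), -0.94 to 1.08 (Cxcl12), -2.39 to 1.62 (Tgfbi) and -0.21 to 0.66 (Sparc). Such fits compare numbers unequally, and a lone library is assumed to vary like the other group.

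Under a replicate block edgeR called 636 genes, 395 higher and 241 lower, and 1 member, Pdgfra, lower (log2 difference -0.47 ± 0.14, adjusted p = 0.0177; 1.77% of genes tested were called lower); Prrx1 turned to 0.0475 and was not called. The block also called 11 of the 44 partners tested and 29 cell type markers, where it called 4.68% of all genes tested. Deviations of same-numbered libraries from their group means correlated across genes (r = 0.631), but with 2 pairs and no label on what a number marks, this is a hint and no pairing was assumed. Postn, at 3 to 16 reads, is limited by depth.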
